A study of Mus musculus with 12 samples.

Results

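Solute carriers are the membrane proteins that move amino acids, sugars, metabolites, nucleosides, vitamins and ions across the plasma membrane and the membranes of organelles. The 124 genes described here are the solute carrier genes that were expressed in bone marrow derived macrophages, out of 331 genes with an Slc family name on the array. They were chosen by their measured level: a gene was kept where its mean log2 intensity reached 8 in at least 1 of 6 groups, read from 1 probe set per gene that carried a single gene symbol, the brightest one over all 12 arrays. The remaining 207 genes stayed under that level in all 6 groups, and 121 of them also lay under the array background in every group. The transporters Slc40a1, Slc11a1, Slc11a2, Slc2a1 and Slc7a2 were left out by the rule. Transporters whose symbols have another form, such as the Slco genes and Slc35b1, do not meet it.

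RNA came from macrophages of C3H/HeN mice that received 100 ng/ml LPS, the lipopolysaccharide of Gram-negative bacteria and a ligand of Toll-like receptor 4, for 45 or 270 min, or none. In every culture, unstimulated ones included, 200 µM 4-thiouridine was present for the last 35 min, and RNA that had taken it up was biotinylated and purified as nascent RNA. Nascent and total RNA at 3 times gave 6 groups of 2 arrays, 1 from each of 2 independent experiments. The cells were expanded from marrow with IL-3, IL-6 and SCF in the presence of M-CSF, matured without those cytokines, and plated without M-CSF before stimulation, so they stand for primary macrophages grown under these factors and not for a tissue population.

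All 9 measured macrophage markers had a mean of 8 or more in at least 1 group, and the T, NK and B cell, dendritic cell and fibroblast lists had no member at that level. The neutrophil list had 1 such member, Mmp8, at 9.14 in total RNA of unstimulated cells, and the erythroid and megakaryocyte list had Pf4, at 8.57 in total RNA at 270 min. Of 8 mast cell and basophil markers, 2 reached it: Cpa3, at 8.03 in total RNA at 270 min, and Mcpt8, at 8.35 in total RNA at 45 min. Mcpt4 and Cma1 were under the array background in all 6 groups. The background was set on each array at the 95th percentile of 1027 olfactory receptor symbols, which lay at 6.18 to 6.80 on the log2 scale. Across genes, both arrays of each group correlated at r = 0.981 to 0.989. The interquartile range of all values was narrower on the stimulated nascent arrays (2.24 to 2.50) than on the unstimulated nascent arrays (2.64 and 3.00). The total array of 270 min in experiment 2 stood apart from the other 5 total arrays, with a range of 2.32 against 2.73 to 3.02 and a background of 6.72 against 6.18 to 6.32. The part of these spreads in the results was tested only through quantile scaling and by leaving arrays out. In bulk RNA, fewer cells of a type and less RNA per cell cannot be told apart.

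Macrophages depend on solute carriers for several known functions. Cystine enters through the antiporter xCT and feeds glutathione synthesis, zinc and copper carriers set the metal supply of the cell and of phagosomes, and carriers of lysosomal membranes return amino acids, nucleosides and sugars from digested material to the cytosol. Mitochondrial carriers of the SLC25 family connect the tricarboxylic acid cycle, nucleotide pools and iron use in the matrix with the cytosol. Nascent RNA reports what was made during the labelling window, whereas total RNA also holds transcripts made earlier, so a change in synthesis reaches total RNA with a delay that depends on how long a transcript lives.

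By family number the 124 genes fell into 10 substrate classes. The largest were the 29 mitochondrial carriers, 21 metal and haem carriers, 17 carriers of amino acids and peptides and 13 carriers of inorganic ions. Carriers of nucleosides and nucleotide sugars, and carriers of vitamins, choline and fatty acids, had 10 genes each. There were 7 carriers of amines and organic ions, 7 of sugars and polyols, 5 of mono- and dicarboxylates and 5 others. Relative to all genes of these families at any level, members made up 21 of 30 metal and haem carriers and 29 of 46 mitochondrial carriers, but 7 of 62 carriers of amines and organic ions and 7 of 32 carriers of sugars and polyols. Among the others, Slc7a6os and Slc9a3r1 carry a matching symbol but encode no carrier. Slc9a3r1 encodes NHERF1, a scaffold protein that binds sodium-proton exchangers.

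The mean over 12 arrays was above 11 on the log2 scale for several named genes. It was 12.32 for Slc3a2, the CD98 heavy chain that carries xCT and some other light chains of the SLC7 family to the membrane. For the taurine transporter gene Slc6a6 the mean was 12.01. It was 11.46 for the vitamin C transporter gene Slc23a2 and 11.01 for the phosphate transporter gene Slc20a1. The mitochondrial phosphate carrier gene Slc25a3 had 10.68 and the copper transporter gene Slc31a2 had 10.71. These are probe set intensities, so they place a gene against the threshold and do not rank transcripts by abundance. A mean of 8 or more was reached in all 6 groups by 51 genes and in only some groups by 73. The lowest maxima inside the threshold were 8.02 for Slc39a3, 8.02 for Slc25a26 and 8.05 for Slc16a6. Just outside it were Slc4a1ap at 7.98, Slc7a1 at 7.94 and Slc25a2 at 7.87. A threshold of 7.5 would have kept 137 genes and one of 8.5 would have kept 101.

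After 270 min of LPS more solute carrier genes were lower than higher in both fractions. In nascent RNA, 17 of the 124 genes were called higher and 56 lower than in unstimulated cells, at an adjusted p below 0.05 in limma fits across the whole array. In that comparison 8.87% of all 19938 symbols were called higher and 14.2% lower, and 14.9% and 28.8% of the 7382 symbols at a mean of 8 or more in at least 1 group. In total RNA, 20 genes were called higher and 44 lower, where 7.02% of all 19938 symbols were called higher and 12% lower, and 14.3% and 23% of the 7382 symbols at a mean of 8 or more in at least 1 group. A gene could enter the group of 124 through 1 group in which it was high. These counts therefore describe the genes, and nothing is read from their distance to the percentages. For the 73 genes at 8 or more in only some groups, single rises and falls may not be independent of the choice. Among the 51 genes at 8 or more in all 6 groups, 5 were called higher and 17 lower in nascent RNA, and 8 higher and 9 lower in total RNA. The median log2 difference of the 124 genes was -0.59 in nascent and -0.46 in total RNA, against 0.12 and 0.07 for all symbols and -0.29 and -0.21 for the symbols at 8 or more in some group. After quantile scaling of the arrays the 3 nascent medians were -0.39, 0.03 and -0.10, and 23 genes were called higher and 48 lower. Leaving out 1 array at a time, 13 of the 17 rises and 36 of the 56 falls in nascent RNA were called in every case. In total RNA 13 of the 20 rises and 25 of the 44 falls were. Without the total array of unstimulated cells in experiment 1, the falls in total RNA numbered 29, and without that of 270 min in experiment 2, which stood apart, 18 genes were called higher and 31 lower. The macrophage markers moved at the same time: nascent RNA of 3 of the 9 was called higher and that of the other 6 lower at 270 min, and in total RNA 1 was higher and 3 lower. Their summed linear intensity was 14951 to 18974 in nascent RNA at 270 min, against 24739.6 to 26730.1 in unstimulated cells. In total RNA it was 32924 to 41944 at 270 min, against 37358 to 43357 in unstimulated cells, so those ranges overlapped. The part of these markers in the carrier counts was not tested.

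At 45 min the nascent RNA had 9 genes called higher and 8 lower, where 3.05% of all 19938 symbols were called higher and 5.88% lower, and 6.39% and 11.7% of the 7382 symbols at a mean of 8 or more in at least 1 group. Total RNA had 2 genes called higher and 0 lower, where 0.662% of all 19938 symbols were called higher and 0.0201% lower, and 1.76% and 0.0135% of the 7382 symbols at a mean of 8 or more in at least 1 group. At an unadjusted p below 0.05, 5 of the 124 genes differed in total RNA in either direction, where 3.05% of all 19938 symbols and 5.2% of the 7382 did. When the experiment was a block, nascent RNA had 12 genes called higher and 15 lower, and total RNA 4 and 0. The shares of all symbols under the block are not given here, so these counts are not set against the array. The early falls depended on single nascent arrays. They numbered 14 without the unstimulated array of experiment 1, 2 without that of experiment 2, 2 and 1 without the 45 min array of experiment 1 and of experiment 2, and 5 without either 270 min array. Without the 45 min nascent array of experiment 1 the early rises numbered 5. The total RNA rises numbered 1 without the unstimulated array of experiment 2 and 0 without the 45 min array of experiment 2.

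**Figure D1:**
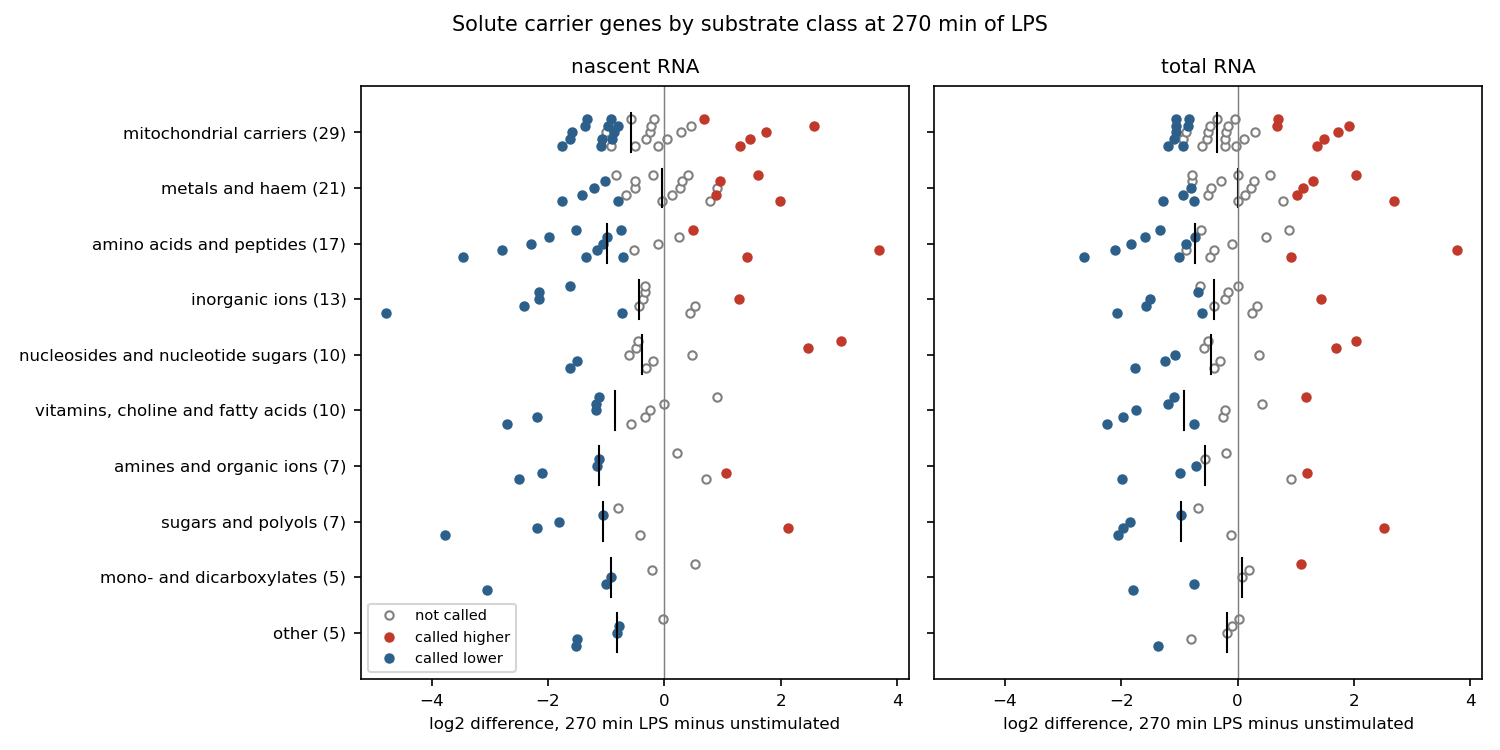
Log2 difference between 270 min of LPS and unstimulated cells for each of the 124 genes (1 point per gene) by substrate class, with the number of genes in brackets, in nascent RNA (left) and total RNA (right). Filled points were called higher (red) or lower (blue) at an adjusted p below 0.05 and black bars are class medians. Called falls outnumbered called rises in most classes. Over all 19938 symbols, 14.2% were called lower and 8.87% higher in nascent RNA, and 12% and 7.02% in total RNA. The nascent range of the 124 genes ran from -4.78 (Slc9a9) to 3.69 (Slc7a11).

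Of the 17 carriers of amino acids and peptides, 3 rose and 11 fell in nascent RNA by 270 min, with 2 rises and 8 falls in total RNA. The class medians were -0.99 and -0.74. Over all 19938 symbols 8.87% were called higher and 14.2% lower in nascent RNA, and 7.02% and 12% in total RNA. Among the 7382 at 8 or more in some group the shares were 14.9% and 28.8%, and 14.3% and 23%. These shares belong beside every class count at 270 min below, and nothing is read from the distance of a class to them. Pairs of values in what follows are log2 intensities of experiments 1 and 2, in that order, and differences are between group means of n = 2 arrays with limma's standard error (SE). Slc7a11, which encodes xCT, the light chain that exchanges glutamate for cystine, had the largest rise of all 124 genes in both fractions. In nascent RNA it measured 8.60 and 8.45 in unstimulated cells, 10.20 and 10.35 at 45 min and 12.28 and 12.14 at 270 min. Total RNA gave 7.59 and 7.91 in unstimulated cells, 8.71 and 9.03 at 45 min and 11.54 and 11.50 at 270 min. Both arrays of each later time lay above both arrays of the time before it, in both fractions. The rise at 45 min was 1.75 ± 0.20 (SE; adjusted p = 9.78e-05) in nascent and 1.12 ± 0.20 (SE; adjusted p = 0.014) in total RNA. The call in total RNA at 45 min was lost without the total array of unstimulated cells in experiment 1 (0.96) and without the total array of 45 min in experiment 2 (0.96). At 270 min the rise was 3.69 ± 0.20 (SE; adjusted p = 2.11e-08), or 12.9-fold, in nascent RNA and 3.77 ± 0.20 (SE; adjusted p = 2.2e-08), or 13.6-fold, in total RNA. The heavy chain gene Slc3a2 had a nascent difference of -0.72 ± 0.16 (SE; adjusted p = 0.0041) at 270 min and a total RNA difference of -0.10 (adjusted p = 0.696). The nascent call of Slc3a2 was lost without the nascent array of 270 min in experiment 2 (-0.62).

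Slc43a2 encodes LAT4, a uniporter of branched-chain and other large neutral amino acids, and had the largest fall in total RNA at 270 min. It measured 10.64 and 10.71 in unstimulated cells, 10.17 and 9.69 at 45 min and 7.33 and 7.10 at 270 min in nascent RNA. In total RNA the values were 10.99 and 10.63 in unstimulated cells, 10.97 and 10.31 at 45 min and 8.5 and 7.85 at 270 min. Both 270 min arrays lay below both unstimulated arrays in each fraction, and the nascent arrays of 45 min already lay below the unstimulated ones. The nascent difference at 45 min was -0.75 (adjusted p = 0.126), and with the experiment as a block its adjusted p was 0.0185. At 270 min Slc43a2 fell by 3.46 ± 0.28 (SE; adjusted p = 7.96e-07) in nascent RNA and by 2.64 ± 0.28 (SE; adjusted p = 1.48e-05) in total RNA, on the log2 scale.

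Slc36a1 encodes PAT1, which carries small amino acids out of lysosomes together with protons. Its nascent level was 9.75 and 9.72 in unstimulated cells, 8.63 and 8.33 at 45 min and 6.84 and 7.04 at 270 min, each time below the one before with no overlap. The total RNA level was 9.29 and 9.40 in unstimulated cells, 9.08 and 9.10 at 45 min and 7.34 and 7.14 at 270 min. The nascent difference was -1.25 ± 0.19 (SE; adjusted p = 0.00125) at 45 min and -2.79 ± 0.19 (SE; adjusted p = 2.01e-07) at 270 min, and the total RNA difference at 270 min was -2.10 ± 0.19 (SE; adjusted p = 4.34e-06). It was the only early nascent fall called with each of the 12 arrays left out in turn. Slc38a7, which encodes the lysosomal glutamine and asparagine exporter SNAT7, had differences at 270 min of -2.29 ± 0.39 (SE; adjusted p = 0.000679) in nascent and -1.34 ± 0.39 (SE; adjusted p = 0.0278) in total RNA. The total RNA call of Slc38a7 was lost without the total array of unstimulated cells in experiment 1 (-0.82) and without the total array of 270 min in experiment 2 (-0.90). Slc36a4, for the related carrier PAT4, fell by 1.98 ± 0.21 (SE; adjusted p = 8.42e-06) and 1.83 ± 0.21 (SE; adjusted p = 2.47e-05). Slc15a4 encodes the endolysosomal histidine and peptide carrier that Toll-like receptors 7 and 9 need for signalling. Its nascent differences were -0.71 ± 0.20 (SE; adjusted p = 0.0373) at 45 min and -1.06 ± 0.20 (SE; adjusted p = 0.00122) at 270 min. The 45 min call of Slc15a4 was lost when 1 array was left out in 7 cases (nascent unstimulated of experiment 2, nascent 45 min of both experiments, nascent 270 min of both experiments, total unstimulated of both experiments), with differences of -0.72 to -0.46.

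The promoter window of Slc36a1 is shown because it fell at both times and its window holds 2 copies of CACGTG, the letters of an E-box that basic helix-loop-helix factors such as USF, MYC and TFEB bind. Windows run from 250 bases before to 50 bases after a transcript start and come from RefSeq (chr11:55204090-55204389, plus strand, GRCm38.p6). They were available for 101 of the 124 genes, in 135 windows. Capitals mark the motif.
Slc36a1: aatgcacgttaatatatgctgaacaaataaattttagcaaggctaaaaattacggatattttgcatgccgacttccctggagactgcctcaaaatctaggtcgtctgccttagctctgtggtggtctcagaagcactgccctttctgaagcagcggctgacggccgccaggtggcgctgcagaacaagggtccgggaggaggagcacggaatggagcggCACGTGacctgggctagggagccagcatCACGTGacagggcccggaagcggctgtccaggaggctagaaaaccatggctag
The copies begin 31 and 3 bases before the start. The 5 motifs searched, on both strands and with N for any base, were CACGTG, the AP-1 site TGANTCA, the amino acid response element written as TGATGNAAT, an interferon-stimulated response element (GAAA on both sides of any 2 bases) and a kappa B site (GGG and TTTCC around any 2 bases). CACGTG was in 23 of the 135 windows (17%), against 7.15% of all 32851 windows in the table. The AP-1 letters were in 10 (7.41%, against 7.81%), the interferon element in 2 (1.48%, against 3.44%), the kappa B letters in 1 (0.741%, against 1.63%) and the amino acid element in 0 (against 0.965%). The 32851 windows were not limited to genes at 8 or more, and windows of 1 gene can overlap. Nothing is therefore read from the gaps between these shares. A match says only that the letters are present.

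Slc7a8, for the neutral amino acid exchanger LAT2, moved the other way. Its nascent RNA measured 9.06 and 8.43 in unstimulated cells, 9.95 and 9.90 at 45 min and 10.28 and 10.03 at 270 min, and total RNA measured 9.49 and 10.18 in unstimulated cells, 9.58 and 10.22 at 45 min and 10.54 and 10.89 at 270 min. The nascent rise was 1.18 ± 0.29 (SE; adjusted p = 0.0215) at 45 min and 1.41 ± 0.29 (SE; adjusted p = 0.00267) at 270 min. The 45 min call was lost without the nascent array of unstimulated cells in experiment 2 (0.87), without the nascent array of 45 min in experiment 1 (1.16) and without the nascent array of 45 min in experiment 2 (1.21). The total RNA difference at 270 min was 0.88 (adjusted p = 0.0504), and 0.0243 was its adjusted p with the experiment as a block. Slc38a2, which encodes the sodium-coupled neutral amino acid carrier SNAT2, differed by -0.99 ± 0.27 (SE; adjusted p = 0.015) in nascent and -0.47 (adjusted p = 0.269) in total RNA. Its nascent call was lost without the nascent array of unstimulated cells in experiment 1 (-1.0), without the nascent array of unstimulated cells in experiment 2 (-0.98) and without the nascent array of 270 min in experiment 2 (-0.84). Slc15a3, for the other endolysosomal peptide carrier of this family, was named after its values were seen. Its differences were 0.68 (adjusted p = 0.0166) and 0.49 (adjusted p = 0.0417) in nascent RNA at 45 and 270 min and 0.91 (adjusted p = 0.000988) in total RNA at 270 min. Both nascent calls were lost under quantile scaling.

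**Figure D2:**
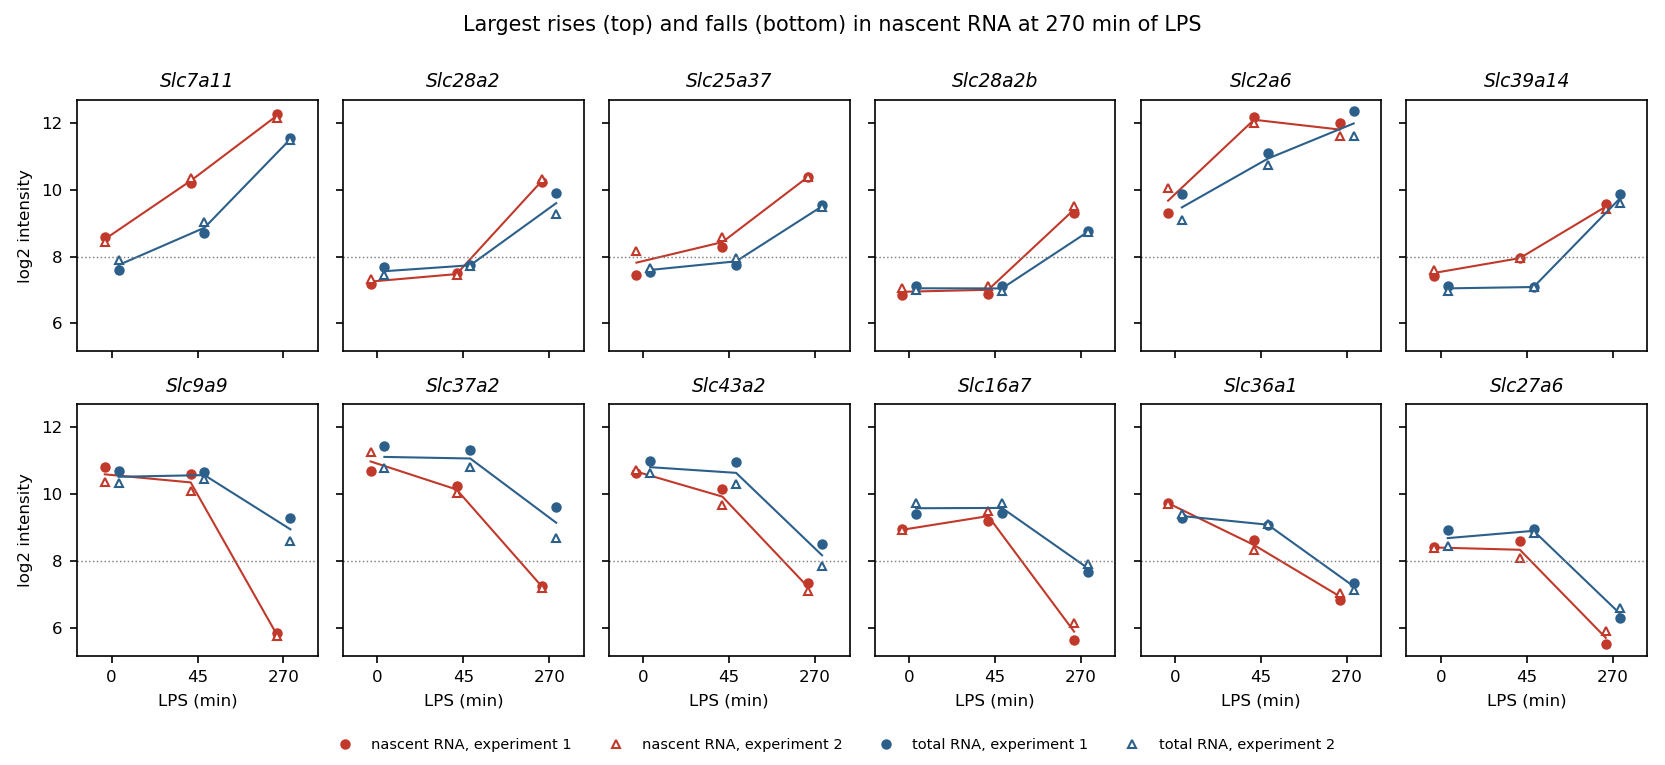
Log2 intensity of the 6 genes with the largest called rise (top) and the 6 with the largest called fall (bottom) in nascent RNA at 270 min, in unstimulated cells (0 min) and at 45 and 270 min of LPS, evenly spaced. Points are single arrays of nascent (red) and total RNA (blue), with filled circles for experiment 1 and open triangles for experiment 2, lines join group means, and the dotted line is the level of 8 used to choose the genes. The nascent values of Slc9a9 at 270 min lie at 5.86 and 5.77, while its total RNA values there are 9.30 and 8.60.

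Of the 7 carriers of sugars and polyols, 1 rose and 4 fell in nascent RNA by 270 min, with 1 rise and 4 falls in total RNA. The gene that rose was Slc2a6, which encodes the facilitative glucose transporter family member GLUT6, found on intracellular membranes. Nascent RNA measured 9.31 and 10.04 in unstimulated cells, 12.19 and 12.003 at 45 min and 11.99 and 11.62 at 270 min. In total RNA it had 9.87 and 9.08 in unstimulated cells, 11.11 and 10.75 at 45 min and 12.35 and 11.62 at 270 min. Stimulated arrays of both times lay above the unstimulated arrays in both fractions. The nascent rise was 2.42 ± 0.31 (SE; adjusted p = 0.000303) at 45 min, the largest of the 124 genes at that time, and 2.13 ± 0.31 (SE; adjusted p = 0.0002) at 270 min. In total RNA it was 1.46 (adjusted p = 0.0594) at 45 min, with an adjusted p of 0.00816 when the experiment was a block, and 2.51 ± 0.31 (SE; adjusted p = 6.16e-05) at 270 min.

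Slc37a2 encodes a phosphate-linked glucose-6-phosphate exchanger of the endoplasmic reticulum. It measured 10.70 and 11.26 in unstimulated cells, 10.24 and 10.04 at 45 min and 7.24 and 7.20 at 270 min in nascent RNA and 11.45 and 10.79 in unstimulated cells, 11.32 and 10.82 at 45 min and 9.61 and 8.69 at 270 min in total RNA. The 270 min arrays lay below the unstimulated arrays in each fraction. Slc37a2 fell by 3.76 ± 0.32 (SE; adjusted p = 1.15e-06) in nascent and by 1.97 ± 0.32 (SE; adjusted p = 0.000509) in total RNA, on the log2 scale. Its window is shown because it had the largest nascent fall among the sugar carriers and holds TGANTCA, the letters of an AP-1 site (chr9:37255689-37255988, minus strand, RefSeq GRCm38.p6). The match, in capitals, begins 107 bases before the start.
Slc37a2: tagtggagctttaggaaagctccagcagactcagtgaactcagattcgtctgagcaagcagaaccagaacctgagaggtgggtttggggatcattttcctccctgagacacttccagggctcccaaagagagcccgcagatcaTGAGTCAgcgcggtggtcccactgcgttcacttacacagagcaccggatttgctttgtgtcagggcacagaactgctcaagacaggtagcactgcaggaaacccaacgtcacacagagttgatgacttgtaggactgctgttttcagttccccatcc
Slc5a3, for the sodium-coupled myo-inositol transporter SMIT1, fell by 2.19 ± 0.25 (SE; adjusted p = 1.83e-05) in nascent and 1.85 ± 0.25 (SE; adjusted p = 0.000114) in total RNA. Slc45a4, a member of the family of proton-linked sucrose transporters, fell by 1.81 ± 0.24 (SE; adjusted p = 8.06e-05) and 2.05 ± 0.24 (SE; adjusted p = 3.77e-05). Each of the 4 calls of Slc5a3 and Slc45a4 was kept with every array left out in turn.

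Slc50a1 encodes SWEET1, a sugar uniporter. Its nascent RNA measured 8.02 and 8.73 in unstimulated cells, 7.16 and 6.74 at 45 min and 7.29 and 7.33 at 270 min, so the 45 min arrays were the lowest. Total RNA measured 9.74 and 9.69 in unstimulated cells, 9.80 and 9.57 at 45 min and 8.93 and 8.56 at 270 min. The nascent differences were -1.42 ± 0.25 (SE; adjusted p = 0.00319) at 45 min and -1.06 ± 0.25 (SE; adjusted p = 0.00704) at 270 min, and the total RNA differences were -0.03 (adjusted p = 1) and -0.97 (adjusted p = 0.014). The nascent call at 45 min was lost without the nascent array of 45 min in experiment 2 (-1.22). The nascent call at 270 min was lost without the nascent array of unstimulated cells in experiment 2 (-0.71). The total RNA call at 270 min was lost without the total array of unstimulated cells in experiment 1 (-0.95), without the total array of unstimulated cells in experiment 2 (-1.0) and without the total array of 270 min in experiment 2 (-0.79).

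Of the 5 genes in the monocarboxylate and dicarboxylate families, 0 rose and 3 fell in nascent RNA by 270 min, with 1 rise and 2 falls in total RNA. Slc16a7 encodes MCT2, a carrier of lactate, pyruvate and ketone bodies. It had 8.95 and 8.92 in unstimulated cells, 9.19 and 9.51 at 45 min and 5.62 and 6.15 at 270 min in nascent RNA. Total RNA gave 9.42 and 9.75 in unstimulated cells, 9.45 and 9.73 at 45 min and 7.67 and 7.90 at 270 min. The nascent arrays of 270 min lay under the array background, so the nascent fall, -3.05 ± 0.23 (SE; adjusted p = 4.62e-07), stands for a level at least 4.68-fold lower than in unstimulated cells. Total RNA fell by 1.79 ± 0.23 (SE; adjusted p = 8.41e-05) and stayed above the background. Slc16a10, which encodes the aromatic amino acid transporter TAT1, was the gene that rose in total RNA, by 1.09 ± 0.25 (SE; adjusted p = 0.00634), and its nascent difference was 0.52 (adjusted p = 0.153). The call in total RNA was lost without the total array of unstimulated cells in experiment 1 (0.96) and without the total array of 270 min in experiment 1 (0.88). Slc16a1, for the lactate carrier MCT1, had -0.93 (adjusted p = 0.00987) in nascent and 0.07 (adjusted p = 0.864) in total RNA. The nascent call of Slc16a1 was lost without the nascent array of unstimulated cells in experiment 2 (-0.79) and without the nascent array of 270 min in experiment 1 (-0.75).

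Among the 7 carriers of amines and organic ions, 1 rose and 4 fell in nascent RNA, and 1 rose and 3 fell in total RNA. Slc17a5 encodes sialin, which exports sialic acid from lysosomes. Nascent values were 10.30 and 9.99 in unstimulated cells, 9.88 and 9.20 at 45 min and 7.63 and 7.67 at 270 min and total RNA values were 10.47 and 9.69 in unstimulated cells, 10.25 and 9.34 at 45 min and 8.48 and 7.72 at 270 min. The 270 min arrays were the lowest in both fractions, and the fall was -2.50 ± 0.36 (SE; adjusted p = 0.000144) in nascent and -1.98 ± 0.36 (SE; adjusted p = 0.00123) in total RNA. Slc6a8, the creatine transporter gene, fell by 2.10 ± 0.19 (SE; adjusted p = 1.99e-06) in nascent and by 0.99 ± 0.19 (SE; adjusted p = 0.00173) in total RNA. Slc6a6, for taurine uptake, had differences of -1.13 (adjusted p = 0.00608) and -0.57 (adjusted p = 0.166), and in total RNA the adjusted p was 0.00941 with the experiment as a block. The nascent call of Slc6a6 was lost without the nascent array of 270 min in experiment 2 (-0.98). Slc22a4 encodes OCTN1, a carrier of the antioxidant ergothioneine, and fell by 1.16 ± 0.22 (SE; adjusted p = 0.00145) in nascent RNA.

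Slc6a4, the serotonin transporter gene, was the gene of this class that rose in both fractions. Its group mean reached 8 only in total RNA at 270 min, so its choice was not independent of the total RNA rise. It measured 6.74 and 6.66 in unstimulated cells, 6.79 and 6.91 at 45 min and 7.74 and 7.77 at 270 min in nascent RNA. In total RNA the values were 7.46 and 7.25 in unstimulated cells, 7.28 and 7.16 at 45 min and 8.59 and 8.51 at 270 min. The rise was 1.06 ± 0.17 (SE; adjusted p = 0.000404) and 1.19 ± 0.17 (SE; adjusted p = 0.000189). Serotonin transporters are also known from mast cells and basophils. The summed linear intensity of the 8 mast cell and basophil markers was 577 to 854 in nascent RNA at 270 min, against 413 to 533 in unstimulated cells. It was 729 to 1626 in total RNA at 270 min, against 487 to 1488 in unstimulated cells. At 270 min 1 of the 8 was called higher and 0 lower in each fraction, and their part in the result was not tested.

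Of the 10 carriers of nucleosides and nucleotide sugars, 2 rose and 2 fell in nascent RNA by 270 min, with 2 rises and 3 falls in total RNA. The risers were Slc28a2, which encodes the sodium-coupled purine nucleoside transporter CNT2, and the neighbouring copy Slc28a2b. Slc28a2 measured 7.17 and 7.34 in unstimulated cells, 7.5 and 7.46 at 45 min and 10.25 and 10.32 at 270 min in nascent RNA. It measured 7.69 and 7.44 in unstimulated cells, 7.76 and 7.72 at 45 min and 9.91 and 9.29 at 270 min in total RNA. The 270 min arrays lay above all other arrays of their fraction. At 270 min the rise was 3.03 ± 0.22 (SE; adjusted p = 2.94e-07) in nascent and 2.04 ± 0.22 (SE; adjusted p = 1.72e-05) in total RNA. Slc28a2b rose by 2.46 ± 0.19 (SE; adjusted p = 4.11e-07) and 1.69 ± 0.19 (SE; adjusted p = 1.92e-05). The sequences of both genes are alike, so signal may be shared between their probe sets. Group means of both genes reached 8 only at 270 min, so their choice was not independent of their rise. Slc29a3, for the lysosomal equilibrative nucleoside transporter ENT3, fell by 1.62 ± 0.21 (SE; adjusted p = 6.47e-05) in nascent and by 1.76 ± 0.21 (SE; adjusted p = 4.43e-05) in total RNA. Slc35a5, of the nucleotide sugar transporter family, fell by 1.49 ± 0.28 (SE; adjusted p = 0.00117) and 1.24 ± 0.28 (SE; adjusted p = 0.00531). The total RNA call of Slc35a5 was lost without the total array of unstimulated cells in experiment 2 (-0.96). The plasma membrane counterpart of Slc29a3, Slc29a1, differed by -0.49 (adjusted p = 0.144) and -0.50 (adjusted p = 0.159).

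The 29 genes of the SLC25 family, classed as mitochondrial carriers by family number alone, moved in both directions. In nascent RNA at 270 min 5 rose and 12 fell, and in total RNA 6 rose and 8 fell, with medians of -0.57 and -0.36. Slc25a37 encodes mitoferrin-1, which brings iron into mitochondria for haem and iron-sulphur cluster synthesis. It measured 7.46 and 8.18 in unstimulated cells, 8.28 and 8.59 at 45 min and 10.39 and 10.40 at 270 min in nascent RNA and 7.54 and 7.67 in unstimulated cells, 7.76 and 7.97 at 45 min and 9.53 and 9.48 at 270 min in total RNA. The 270 min arrays lay above all other arrays of their fraction. The rise was 2.57 ± 0.24 (SE; adjusted p = 2.72e-06) in nascent and 1.91 ± 0.24 (SE; adjusted p = 5.77e-05) in total RNA. Group means of Slc25a37 reached 8 only after LPS, so its choice was not independent of this rise. Genes for carriers of glutamate and aspartate went in both directions. Slc25a12, for the aspartate-glutamate exchanger aralar, rose by 1.75 ± 0.30 (SE; adjusted p = 0.000583) in nascent and 1.37 ± 0.30 (SE; adjusted p = 0.00436) in total RNA. The total RNA call was lost without the total array of unstimulated cells in experiment 2 (1.10). Slc25a13, for the related exchanger citrin, fell by 1.76 ± 0.23 (SE; adjusted p = 5.55e-05) and 0.86 ± 0.23 (SE; adjusted p = 0.0158). The call of citrin in total RNA was lost without the total array of unstimulated cells in experiment 1 (-0.66) and without the total array of 270 min in experiment 2 (-0.59).

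Slc25a22 encodes the mitochondrial glutamate carrier GC1. Its group means reached 8 only at 270 min, so its choice was not independent of its rise. Its nascent values were 6.73 and 7.0 in unstimulated cells, 6.62 and 6.46 at 45 min and 8.39 and 8.29 at 270 min. Total RNA gave 7.17 and 6.81 in unstimulated cells, 7.33 and 6.80 at 45 min and 8.94 and 8.47 at 270 min, and in both fractions the 270 min arrays lay above the unstimulated ones. The rise was 1.48 ± 0.23 (SE; adjusted p = 0.000325) in nascent and 1.72 ± 0.23 (SE; adjusted p = 0.000119) in total RNA. A window of Slc25a22 (chr7:141435326-141435625, minus strand, RefSeq GRCm38.p6) is shown because it is one of 2 among the 135 that hold the letters of the interferon-stimulated response element. The match, in capitals, begins 79 bases before the start, and the other 2 windows of the gene have none.
Slc25a22: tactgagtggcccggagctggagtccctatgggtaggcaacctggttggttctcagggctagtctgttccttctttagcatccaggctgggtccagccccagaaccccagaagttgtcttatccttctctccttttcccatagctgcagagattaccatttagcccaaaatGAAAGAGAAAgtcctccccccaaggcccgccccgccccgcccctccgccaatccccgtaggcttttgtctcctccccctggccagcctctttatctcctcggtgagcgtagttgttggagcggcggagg
The other window with this motif belongs to Slc28a2b. A match is a description of the sequence and no binding was measured.

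Slc25a25 and Slc25a33 changed early. Slc25a25 encodes a calcium-regulated carrier of magnesium-ATP and phosphate. Nascent RNA measured 7.55 and 8.54 in unstimulated cells, 10.91 and 9.97 at 45 min and 9.66 and 9.04 at 270 min, with both later times above the unstimulated arrays and the highest values at 45 min. Total RNA measured 7.16 and 6.75 in unstimulated cells, 8.79 and 8.25 at 45 min and 8.79 and 8.10 at 270 min. The nascent rise was 2.40 ± 0.39 (SE; adjusted p = 0.00176) at 45 min and 1.30 ± 0.39 (SE; adjusted p = 0.026) at 270 min. In total RNA it was 1.57 (adjusted p = 0.151) at 45 min, with an adjusted p of 0.0274 when the experiment was a block, and 1.49 ± 0.39 (SE; adjusted p = 0.0145) at 270 min. The 270 min call in nascent RNA was lost without the nascent array of unstimulated cells in experiment 1 (0.81) and without the nascent array of 270 min in experiment 1 (0.99). The 270 min call in total RNA was lost without the total array of unstimulated cells in experiment 2 (1.29) and without the total array of 270 min in experiment 1 (1.15).

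Slc25a33 encodes PNC1, a carrier of pyrimidine nucleotides. It entered the 124 genes through the 45 min nascent group alone, with 6.51 and 6.83 in unstimulated cells, 8.21 and 7.95 at 45 min and 6.53 and 6.29 at 270 min in nascent RNA. In total RNA it had 6.26 and 5.99 in unstimulated cells, 6.65 and 6.90 at 45 min and 6.25 and 5.91 at 270 min. The nascent arrays of 45 min lay above all others, and those of 270 min overlapped the unstimulated arrays and lay under the array background. The differences in nascent RNA were 1.41 ± 0.20 (SE; adjusted p = 0.000601) at 45 min and -0.26 (adjusted p = 0.363) at 270 min, and the total RNA difference at 45 min was 0.65 (adjusted p = 0.447). Its window holds CACGTG 8 bases before the start and is shown for that reason (chr4:149774218-149774517, minus strand, RefSeq GRCm38.p6).
Slc25a33: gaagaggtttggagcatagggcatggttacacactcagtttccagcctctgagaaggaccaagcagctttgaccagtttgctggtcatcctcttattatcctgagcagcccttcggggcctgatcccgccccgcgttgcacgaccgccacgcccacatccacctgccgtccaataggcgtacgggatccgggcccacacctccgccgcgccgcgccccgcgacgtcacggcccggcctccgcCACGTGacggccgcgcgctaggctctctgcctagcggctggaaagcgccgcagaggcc
The adenine nucleotide carrier gene Slc25a4 and the oxoglutarate carrier gene Slc25a11 had early nascent differences of -1.01 (adjusted p = 0.023) and -1.46 (adjusted p = 0.0307). The early call of Slc25a4 was lost without the nascent array of unstimulated cells in experiment 2 (-0.79), without the nascent array of 45 min in experiment 1 (-1.09) and without the nascent array of 45 min in experiment 2 (-0.93). That of Slc25a11 was lost without the nascent array of unstimulated cells in experiment 2 (-0.70), without the nascent array of 45 min in experiment 1 (-1.65) and without the nascent array of 45 min in experiment 2 (-1.28). Quantile scaling also ended the early call of Slc25a11. Slc25a16, a carrier linked to coenzyme A, differed by -0.74 (adjusted p = 0.0324) at 45 min and fell by 1.33 ± 0.20 (SE; adjusted p = 0.000202) at 270 min. Its group means reached 8 only in unstimulated cells, so its choice was not independent of these falls. The early call of Slc25a16 was lost when 1 array was left out in 5 cases (nascent unstimulated of experiment 2, nascent 45 min of both experiments, nascent 270 min of both experiments), with differences of -0.74 to -0.53.

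Of the 21 carriers of metals and haem, 4 rose and 5 fell in nascent RNA by 270 min, with 5 rises and 4 falls in total RNA. The medians were -0.04 and 0.01. The largest rises were in genes of 2 zinc importers of the ZIP family that also carry manganese and iron. Slc39a14, for ZIP14, measured 7.42 and 7.61 in unstimulated cells, 7.95 and 7.96 at 45 min and 9.57 and 9.42 at 270 min in nascent RNA. Total RNA had 7.12 and 6.99 in unstimulated cells, 7.08 and 7.10 at 45 min and 9.86 and 9.60 at 270 min, so its 45 min and unstimulated arrays overlapped and the 270 min arrays stood above them. The rise at 270 min was 1.99 ± 0.19 (SE; adjusted p = 3.43e-06) in nascent and 2.68 ± 0.19 (SE; adjusted p = 3.37e-07) in total RNA. Group means of Slc39a14 reached 8 only at 270 min, so its choice was not independent of this rise. Slc39a8, for ZIP8, had 7.21 and 7.03 in unstimulated cells, 7.48 and 7.76 at 45 min and 8.57 and 8.88 at 270 min in nascent and 7.72 and 8.11 in unstimulated cells, 7.96 and 8.16 at 45 min and 9.83 and 10.07 at 270 min in total RNA. It rose by 1.60 ± 0.22 (SE; adjusted p = 8.84e-05) and 2.03 ± 0.22 (SE; adjusted p = 1.54e-05). Group means of Slc39a8 reached 8 only after LPS, so its choice was not independent of this rise either. Of the other ZIP genes, Slc39a6 fell by 1.42 ± 0.24 (SE; adjusted p = 0.000527) in nascent RNA, and Slc39a1, for the plasma membrane importer ZIP1, had 0.27 (adjusted p = 0.485). Slc39a1 was called higher at 45 min in nascent RNA (0.93 ± 0.27 (SE; adjusted p = 0.0495)). That call was lost when 1 array was left out in 9 cases (nascent unstimulated of experiment 1, nascent 45 min of both experiments, nascent 270 min of both experiments, total unstimulated of both experiments, total 45 min of both experiments), with differences of 0.42 to 0.98. It was also lost under quantile scaling.

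Slc31a2 encodes CTR2, a copper transporter of intracellular membranes. Its difference at 270 min was 0.90 (adjusted p = 0.136) in nascent and 1.29 (adjusted p = 0.0441) in total RNA, and with the experiment as a block the nascent adjusted p was 0.000867. The total RNA call of Slc31a2 was lost when 1 array was left out in 6 cases (nascent unstimulated of both experiments, nascent 45 min of both experiments, total unstimulated of experiment 2, total 270 min of experiment 1), with differences of 0.75 to 1.29. Slc48a1, for HRG1, which carries haem out of phagolysosomes, fell in both fractions. Nascent RNA measured 9.16 and 9.74 in unstimulated cells, 8.30 and 8.29 at 45 min and 7.82 and 7.55 at 270 min, and total RNA measured 10.74 and 10.67 in unstimulated cells, 10.69 and 10.46 at 45 min and 9.61 and 9.23 at 270 min. In nascent RNA each time lay below the one before it without overlap. The nascent difference was -1.15 ± 0.23 (SE; adjusted p = 0.00718) at 45 min and -1.77 ± 0.23 (SE; adjusted p = 6.72e-05) at 270 min, and the total RNA difference at 270 min was -1.29 ± 0.23 (SE; adjusted p = 0.00122). The 45 min call was lost without the nascent array of unstimulated cells in experiment 2 (-0.86), without the nascent array of 45 min in experiment 1 (-1.16) and without the nascent array of 45 min in experiment 2 (-1.15).

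Of the 13 carriers of inorganic ions, 1 rose and 6 fell in nascent RNA by 270 min, with 1 rise and 5 falls in total RNA. Slc9a9 encodes NHE9, a sodium-proton exchanger of endosomes, and had the largest nascent fall of all 124 genes. Its nascent RNA measured 10.81 and 10.38 in unstimulated cells, 10.60 and 10.11 at 45 min and 5.86 and 5.77 at 270 min. In total RNA it measured 10.70 and 10.34 in unstimulated cells, 10.68 and 10.47 at 45 min and 9.30 and 8.60 at 270 min. The nascent arrays of 45 min and of unstimulated cells overlapped, and those of 270 min lay under the array background. The nascent difference was -4.78 ± 0.27 (SE; adjusted p = 2.84e-08), which stands for a level at least 14.8-fold lower than in unstimulated cells. Total RNA fell by 1.57 ± 0.27 (SE; adjusted p = 0.000799). The window of Slc9a9 (chr9:94669642-94669941, plus strand, RefSeq GRCm38.p6) is shown as that of the gene with this fall. It holds TGANTCA, in capitals, beginning 96 bases before the start.
Slc9a9: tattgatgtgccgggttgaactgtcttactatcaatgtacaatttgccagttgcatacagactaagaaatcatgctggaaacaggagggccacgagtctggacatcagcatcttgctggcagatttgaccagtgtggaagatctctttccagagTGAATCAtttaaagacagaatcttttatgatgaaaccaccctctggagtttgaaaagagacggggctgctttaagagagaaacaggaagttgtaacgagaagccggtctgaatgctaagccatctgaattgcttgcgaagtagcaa
The related exchanger gene Slc9a7, whose product NHE7 resides in the trans-Golgi network, fell by 2.41 ± 0.20 (SE; adjusted p = 8.19e-07) in nascent and 1.51 ± 0.20 (SE; adjusted p = 8.46e-05) in total RNA. Slc26a11, an anion carrier of lysosomes, fell by 2.15 ± 0.30 (SE; adjusted p = 0.000128) and 2.07 ± 0.30 (SE; adjusted p = 0.000235). Slc24a5, for a potassium-dependent sodium-calcium exchanger of intracellular membranes, fell by 2.15 ± 0.23 (SE; adjusted p = 1.16e-05) in nascent RNA and differed by -0.64 (adjusted p = 0.0753) in total RNA, where the adjusted p was 0.0384 with the experiment as a block. The gene that rose was Slc12a4, for the potassium-chloride cotransporter KCC1, by 1.27 ± 0.23 (SE; adjusted p = 0.00106) in nascent and 1.43 ± 0.23 (SE; adjusted p = 0.000533) in total RNA.

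Slc20a1 encodes PiT1, the sodium-phosphate cotransporter that imports phosphate across the plasma membrane, and went up and then down. In nascent RNA it had 11.80 and 11.92 in unstimulated cells, 12.87 and 12.96 at 45 min and 10.16 and 10.32 at 270 min. Total RNA gave 10.24 and 10.17 in unstimulated cells, 11.21 and 11.37 at 45 min and 9.46 and 9.60 at 270 min. In both fractions the 45 min arrays lay above and the 270 min arrays below the unstimulated arrays. The differences in nascent RNA were 1.05 ± 0.17 (SE; adjusted p = 0.00157) at 45 min and -1.63 ± 0.17 (SE; adjusted p = 7.86e-06) at 270 min. In total RNA they were 1.08 ± 0.17 (SE; adjusted p = 0.00453) and -0.68 ± 0.17 (SE; adjusted p = 0.0109). The total RNA call at 45 min was lost without the total array of unstimulated cells in experiment 2 (1.05) and without the total array of 45 min in experiment 2 (1.0). The one at 270 min was lost without the total array of unstimulated cells in experiment 1 (-0.64) and without the total array of 270 min in experiment 1 (-0.61). A window of Slc20a1 (chr2:129198523-129198822, plus strand, RefSeq GRCm38.p6) holds CACGTG 175 and 22 bases before the start and is shown beside that of Slc36a1 as the other gene in which this motif occurred in pairs and the early nascent change was called.
Slc20a1: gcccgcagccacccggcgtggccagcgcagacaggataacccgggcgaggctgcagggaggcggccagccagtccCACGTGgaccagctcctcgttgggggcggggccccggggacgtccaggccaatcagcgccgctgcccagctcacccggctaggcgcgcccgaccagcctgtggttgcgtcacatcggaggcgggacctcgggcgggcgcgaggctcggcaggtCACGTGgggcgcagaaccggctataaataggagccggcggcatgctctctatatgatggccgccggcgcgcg
Slc4a2, for the chloride-bicarbonate exchanger AE2, had an early nascent difference of -0.82 (adjusted p = 0.039). The call of Slc4a2 was lost when 1 array was left out in 7 cases (nascent unstimulated of experiment 2, nascent 45 min of both experiments, nascent 270 min of both experiments, total unstimulated of both experiments), with differences of -0.88 to -0.50. It was also lost under quantile scaling.

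Of the 10 carriers of vitamins, choline and fatty acids, 0 rose and 5 fell in nascent RNA by 270 min, with 1 rise and 6 falls in total RNA. The fatty acid transport protein genes Slc27a6 and Slc27a1 had the largest nascent falls. Slc27a6, for FATP6, measured 8.41 and 8.40 in unstimulated cells, 8.59 and 8.08 at 45 min and 5.51 and 5.90 at 270 min in nascent RNA. Total RNA had 8.92 and 8.46 in unstimulated cells, 8.96 and 8.85 at 45 min and 6.29 and 6.59 at 270 min. The 270 min arrays were the lowest of each fraction, and those of nascent RNA were under the array background. In total RNA at 270 min, experiment 2 also lay under its background of 6.72, and experiment 1 lay just above its 6.24. The nascent fall of -2.70 ± 0.23 (SE; adjusted p = 1.57e-06) stands for a level at least 3.24-fold lower. Total RNA fell by 2.25 ± 0.23 (SE; adjusted p = 1.3e-05), a size that the background also limits. Slc27a1, for FATP1, fell by 2.19 ± 0.29 (SE; adjusted p = 7.26e-05) in nascent and 1.75 ± 0.29 (SE; adjusted p = 0.00064) in total RNA. Slc27a4, of the same family, differed by -0.25 (adjusted p = 0.497) in total RNA at 270 min. Its nascent response was apart from that by only -0.006. Slc46a3, a carrier of lysosomal membranes, fell by 1.97 ± 0.22 (SE; adjusted p = 2.07e-05) in total RNA. Its total RNA mean at 270 min, 6.57, lay between the backgrounds of those arrays. The nascent difference of Slc46a3 was -1.17 ± 0.22 (SE; adjusted p = 0.00125), with the 270 min arrays under the background, so that the nascent level was at least 1.75-fold lower. Slc44a2, of the choline transporter-like family, fell by 1.13 ± 0.18 (SE; adjusted p = 0.000404) and 1.19 ± 0.18 (SE; adjusted p = 0.000344), and the highest-level gene of the class, Slc23a2, differed by -0.004 (adjusted p = 0.991) and 0.42 (adjusted p = 0.295).

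Among the 5 genes in no substrate class, 0 rose and 4 fell in nascent RNA by 270 min, with 0 rises and 1 fall in total RNA. Slc66a1 encodes PQLC2, which exports cationic amino acids from lysosomes, and fell by 1.52 ± 0.23 (SE; adjusted p = 0.000276) in nascent and 1.36 ± 0.23 (SE; adjusted p = 0.000845) in total RNA. Slc66a2 and Slc49a4 fell by 1.51 ± 0.32 (SE; adjusted p = 0.00351) and 0.82 ± 0.17 (SE; adjusted p = 0.00289) in nascent RNA. The call of Slc66a2 was lost without the nascent array of unstimulated cells in experiment 2 (-1.08). The scaffold gene Slc9a3r1 measured 9.15 and 9.60 in unstimulated cells, 10.55 and 10.27 at 45 min and 8.64 and 8.54 at 270 min in nascent RNA, highest at 45 min and lowest at 270 min without overlap. Its differences were 1.04 ± 0.21 (SE; adjusted p = 0.00736) and -0.79 ± 0.21 (SE; adjusted p = 0.0147). The 45 min call was lost without the nascent array of 45 min in experiment 1 (0.89). The 270 min call was lost without the nascent array of unstimulated cells in experiment 2 (-0.56), without the nascent array of 270 min in experiment 1 (-0.84) and without the nascent array of 270 min in experiment 2 (-0.73). Its total RNA differences were 0.07 (adjusted p = 1) and -0.09 (adjusted p = 0.804).

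**Figure D3:**
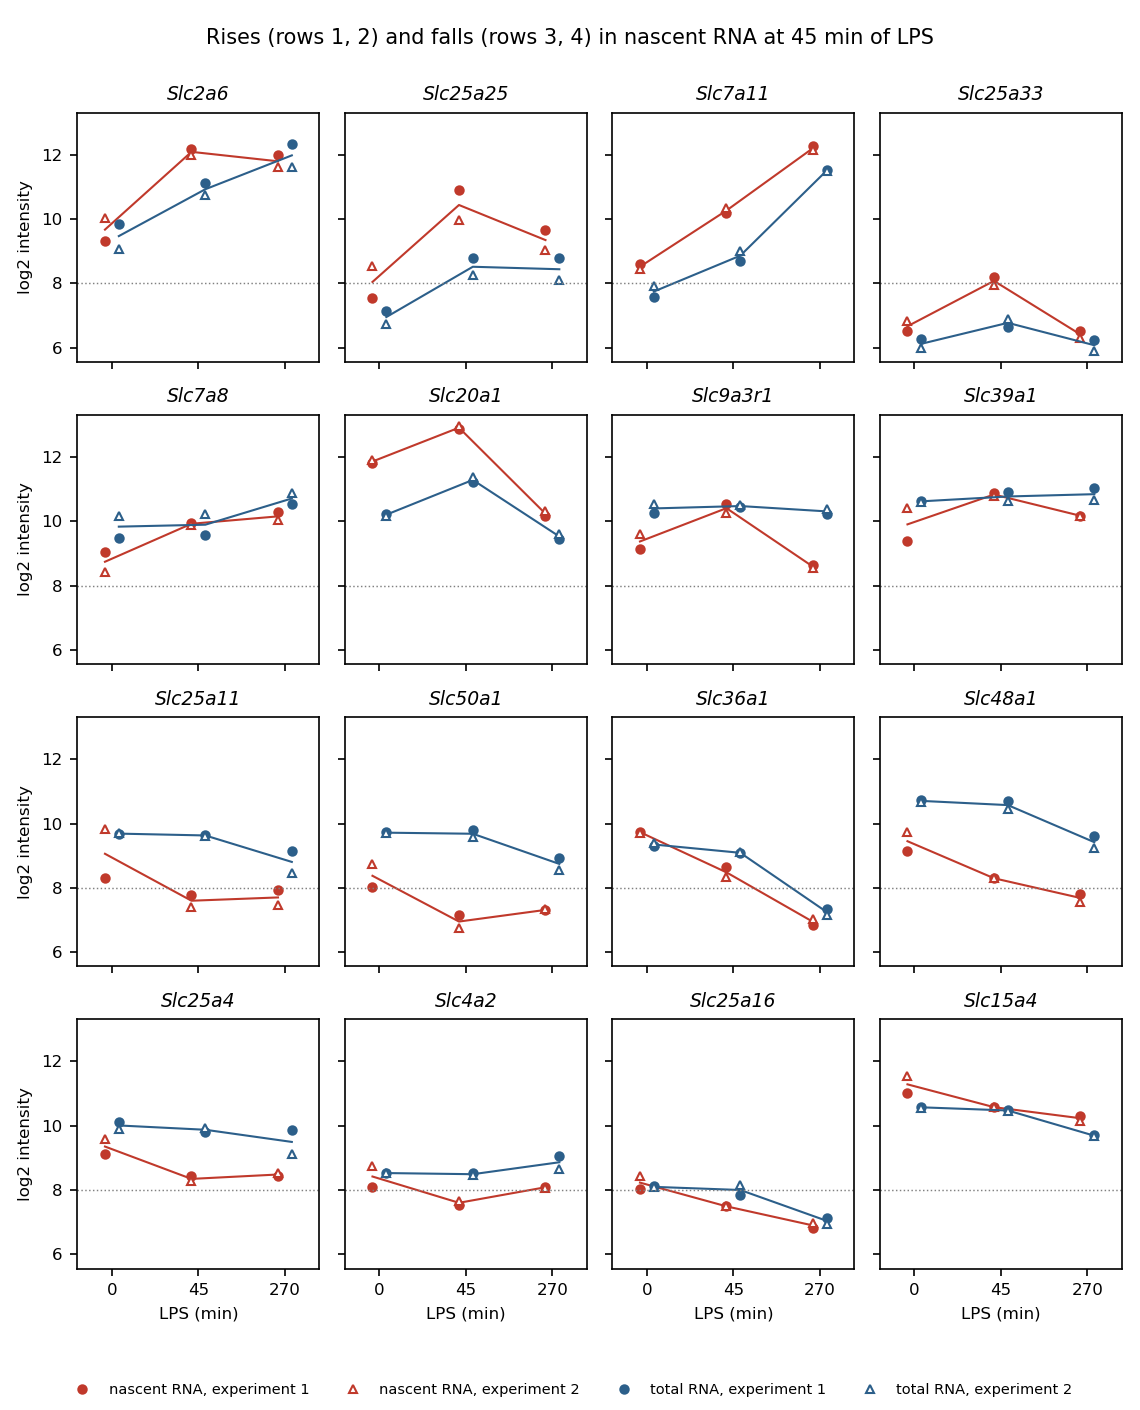
Log2 intensity of the named genes called higher (upper 2 rows) or lower (lower 2 rows) in nascent RNA at 45 min, in unstimulated cells (0 min) and at 45 and 270 min of LPS, evenly spaced. Red marks nascent and blue total RNA, filled circles are experiment 1 and open triangles experiment 2, lines join group means, and the dotted line is the level of 8. Slc20a1, Slc25a33 and Slc9a3r1 peak at 45 min in nascent RNA, and for most of the lower genes the total RNA at 45 min lies near its unstimulated level.

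Between 45 and 270 min of LPS, 13 genes were called higher and 44 lower at 270 min in nascent RNA, where 6.74% of all 19938 symbols were called higher and 10% lower, and 14.8% and 21.7% of the 7382 symbols at a mean of 8 or more in at least 1 group. In total RNA 17 were called higher and 41 lower, where 6.64% of all 19938 symbols were called higher and 11.5% lower, and 12.5% and 22.4% of the 7382 symbols at a mean of 8 or more in at least 1 group. Leaving out the nascent array of 45 min in experiment 1 brought the nascent falls to 27, and leaving out the total array of 270 min in experiment 2 brought those in total RNA to 27. The comparisons share the 270 min arrays with those above. Of the early nascent rises, 3 were called lower again at 270 min: Slc20a1, with -2.68 ± 0.17 (SE; adjusted p = 1.41e-07), Slc9a3r1, with -1.82 ± 0.21 (SE; adjusted p = 2.63e-05), and Slc25a33, with -1.67 ± 0.20 (SE; adjusted p = 3.54e-05) and at least 2.58-fold lower at 270 min. Slc25a25 had -1.09 (adjusted p = 0.0754) in nascent RNA, and with the experiment as a block its adjusted p was 0.0257. Slc2a6 had -0.29 (adjusted p = 0.693) in nascent RNA and 1.05 (adjusted p = 0.0321) in total RNA. Slc9a9 had -4.54 ± 0.27 (SE; adjusted p = 7.63e-08) and Slc16a7 -3.46 ± 0.23 (SE; adjusted p = 2.37e-07) in nascent RNA over this interval, and with their 270 min arrays under the background these stand for levels at least 12.5-fold and 6.22-fold lower than at 45 min. In total RNA the largest falls were -2.47 (adjusted p = 3.31e-05) for Slc43a2 and -2.47 (adjusted p = 7.42e-06) for Slc27a6, and the largest rises 2.65 (adjusted p = 1.01e-06) for Slc7a11 and 2.64 (adjusted p = 6.07e-07) for Slc39a14. The size of the Slc27a6 fall is limited, because its total array of 270 min in experiment 2 lay under the background.

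Whether a gene responded differently in nascent and in total RNA was tested within cultures, on nascent minus total values. At 45 min 0 of the 124 genes had a higher and 1 a lower response in nascent than in total RNA, where 0.476% of all 19938 symbols were called higher and 0.567% lower, and 1.25% and 1.25% of the 7382 symbols at a mean of 8 or more in at least 1 group. At an unadjusted p below 0.05 there were 21 in either direction, where 11.9% of all 19938 symbols and 21.1% of the 7382 passed. With the experiment as a block there were 4 higher and 6 lower, for which no shares of all symbols are given. The called gene was Slc50a1, with -1.39 ± 0.32 (SE; adjusted p = 0.043). Its call was lost without the unstimulated culture of experiment 2 (-1.01), without the 45 min culture of experiment 1 (-1.49) and without the 45 min culture of experiment 2 (-1.30). Its call was also lost under quantile scaling. Slc7a8, Slc2a6, Slc9a3r1 and Slc39a1 had the higher nascent responses called with the block, of 1.12, 0.96, 0.96 and 0.78 (adjusted p with the block = 0.00121, 0.0023, 0.00808 and 0.0341). The lower ones were Slc50a1, Slc25a11, Slc48a1, Slc36a1, Slc25a4 and Slc37a2. Leaving out the unstimulated culture of experiment 1 gave 4 higher and 15 lower, and leaving out that of experiment 2 gave 4 and 0.

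At 270 min 0 genes had a higher and 4 a lower response in nascent than in total RNA, where 0.12% of all 19938 symbols were called higher and 0.722% lower, and 0.271% and 1.9% of the 7382 symbols at a mean of 8 or more in at least 1 group. Unadjusted p was below 0.05 for 32 genes, where 7.08% of all 19938 symbols and 13.5% of the 7382 passed. With the experiment as a block 1 gene was higher and 10 were lower, again without shares of all symbols. The largest difference was that of Slc9a9, at -3.21 ± 0.30 (SE; adjusted p = 7.24e-06), and its call was kept with each culture left out and under quantile scaling. Its nascent level at 270 min lay under the background, so the sign of this difference is measured and its size is not fixed. Slc37a2 had -1.79 ± 0.36 (SE; adjusted p = 0.0146), Slc24a5 had -1.52 ± 0.31 (SE; adjusted p = 0.0182) and Slc25a44, for a mitochondrial carrier of branched-chain amino acids, had -1.46 ± 0.32 (SE; adjusted p = 0.0267). The call of Slc37a2 was lost without the 45 min culture of experiment 1 (-1.79), without the 45 min culture of experiment 2 (-1.79) and without the 270 min culture of experiment 1 (-1.35). That of Slc24a5 was lost when 1 culture was left out in 4 cases (45 min culture of both experiments, 270 min culture of both experiments), with differences of -1.59 to -1.45. That of Slc25a44 was lost when 1 culture was left out in 4 cases (unstimulated culture of experiment 2, 45 min culture of both experiments, 270 min culture of experiment 1), with differences of -1.46 to -1.01. All 3 were lost under quantile scaling. With the block, Slc16a7, Slc6a8, Slc41a2, Slc16a1, Slc20a1 and Slc38a7 were added to the lower ones and Slc28a2, with 1.0, was the higher one. Leaving out the unstimulated culture of experiment 1 gave 2 higher and 23 lower.

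**Figure D4:**
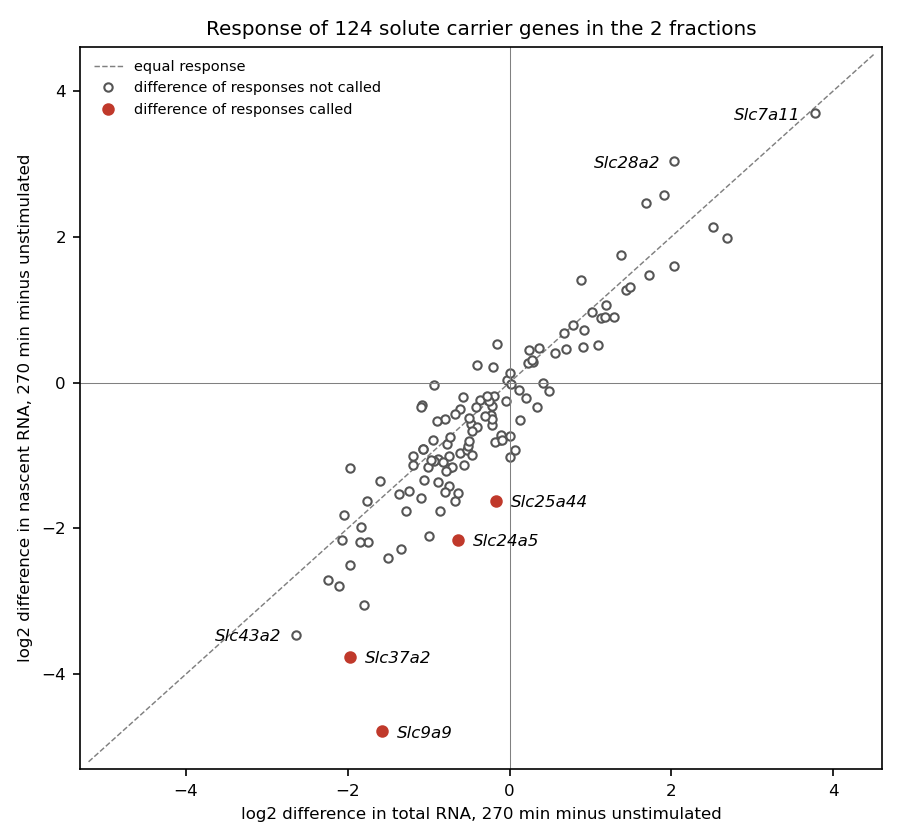
Log2 difference between 270 min of LPS and unstimulated cells in nascent RNA (vertical axis) against total RNA (horizontal axis), 1 point per gene, for the 124 genes. The dashed line marks equal responses, red points are the 4 genes whose responses were called different, and all 4 lie below the line, with Slc9a9 at -4.78 in nascent and -1.57 in total RNA.

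Before LPS, nascent and total RNA already differed for many of the genes. Amounts per cell are not kept in these values, so a difference between fractions only places a gene against other genes on those arrays. In unstimulated cells 18 of the 124 genes were called higher and 24 lower in nascent than in total RNA, where 7.58% of all 19938 symbols were called higher and 8.42% lower, and 17.1% and 19.4% of the 7382 symbols at a mean of 8 or more in at least 1 group. Without the unstimulated culture of experiment 2, 11 were higher. Slc20a1 had 11.80 and 11.92 in nascent and 10.24 and 10.17 in total RNA, a difference of 1.66 ± 0.17 (SE; adjusted p = 1.56e-06). Slc38a2 had 12.25 and 12.27 in nascent and 10.99 and 10.31 in total RNA, and the difference was 1.61 ± 0.18 (SE; adjusted p = 4.79e-06). Slc25a44, Slc5a3 and Slc25a25 followed with 1.20, 1.11 and 1.09. The call of Slc25a25 was lost without the unstimulated culture of experiment 2 (0.39). At the other end, Slc29a1, which encodes the plasma membrane nucleoside transporter ENT1, had 8.15 and 8.57 in nascent and 10.31 and 10.07 in total RNA, with a difference of -1.83 ± 0.23 (SE; adjusted p = 1.6e-05). Slc25a39, for a mitochondrial glutathione carrier, had 8.37 and 9.04 in nascent and 10.32 and 10.32 in total RNA, with -1.61 ± 0.22 (SE; adjusted p = 3.11e-05). Slc50a1, Slc48a1 and Slc44a2 had -1.34, -1.26 and -1.24. In none of these 4 genes with values in full did the fractions overlap.

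**Figure D5:**
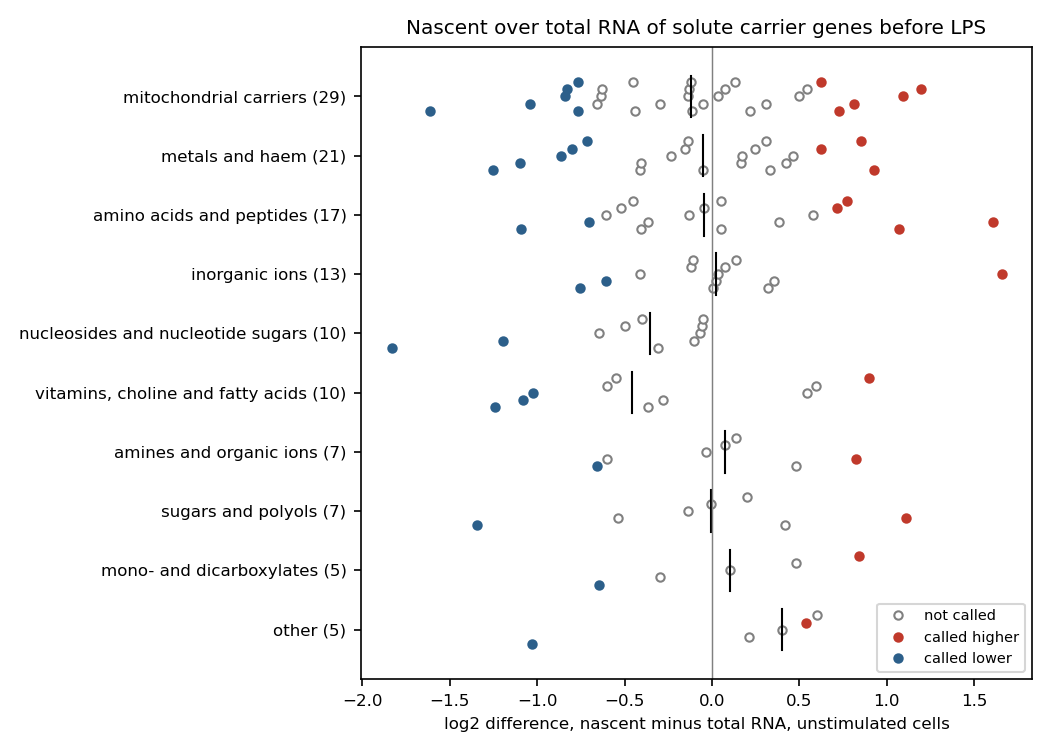
Log2 difference between nascent and total RNA of unstimulated cells for each of the 124 genes (1 point per gene) by substrate class, with the number of genes in brackets. Filled points were called higher (red) or lower (blue) in nascent RNA and black bars are class medians. Values run from -1.83 (Slc29a1) to 1.66 (Slc20a1), and the 10 nucleoside and nucleotide sugar carriers all lie at or below -0.05.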

How the data were processed

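Nascent and total RNA of 6 cultures were read on 12 Affymetrix Mouse Gene ST 1.0 arrays, the amplification starting from 100 ng (nascent) or 200 ng (total), per the labels' protocols. The authors deposited 1 linear intensity per probe set for 35557 probe sets. Per the submitters' processing notes these come from RMA in the Affymetrix Expression Console, and the sources used here do not give versions or say whether all arrays were normalised jointly. A change common to every gene on an array is hidden by RMA's quantile step, and arrays give no read depth, so precision rests on 2 arrays per group. The log2 of each deposited intensity was taken before any test.

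The platform annotation paired 21789 probe sets with 1 symbol and 1621 with several, and 12147 were unnamed. This left 19938 symbols, all of which were fitted. For the 10 of the 124 genes that have several probe sets, the brightest was used. All 124 symbols were found in the RefSeq gene table. Members, substrate classes and lists were chosen with earlier results of these data known. Classes follow the SLC family number, except that Slc7a6os and Slc9a3r1 were set apart after their names were seen.

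Tests used limma 3.58.1 in R 4.3.3 (lmFit and eBayes with an intensity trend). Differences between times came from group means over the 12 arrays, with 6 residual and 7.38 prior degrees of freedom. Nascent was set against total RNA through the 6 within-culture differences, averaged per time, with 3 residual and 16.51 prior degrees of freedom. Benjamini-Hochberg adjustment of p-values ran over the 19938 symbols, and calls needed an adjusted p under 0.05. The fits were tested on simulated data. Tables and figures used Python 3.11.15, numpy 2.4.6, pandas 2.3.3 and matplotlib 3.10.9. Where both arrays of a group lay under the background, a fold is given as at least the brighter mean over the higher of background and measured value per array.

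The labels mark 2 independent experiments, so the experiment number pairs the arrays. Deviations of same-numbered arrays from their group means correlated between -0.295 and 0.645, and lowest for the unstimulated nascent group. The experiment as a block was an alternative fit. Other alternatives were quantile scaling of the 6 arrays of each fraction, leaving out dim symbols, the mean of all probe sets of a symbol, no intensity trend, and leaving out each array or culture. Nothing says whether the 2 experiments used separate animals, so p-values measure the spread between these cultures. Fits between times pooled the spread of nascent and total arrays, with no term for the culture both came from. Deviations of the 2 fractions of a culture correlated at -0.055 in unstimulated cells, 0.175 at 45 min and 0.419 at 270 min.

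Named genes are, among members with the same sign in both experiments, the 10 largest called rises and 10 largest falls of each comparison at 270 min, 8 and 8 at 45 min and 5 and 5 elsewhere, up to 4 called members and the brightest member of each class, and 3 genes on either side of the level threshold.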

Additional observations from a re-analysis of the deposited data

Results flagged for a closer look

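The responses of 5 genes differed between nascent and total RNA in the test of the difference itself. At 45 min the response of Slc50a1 was lower in nascent than in total RNA by a log2 difference of -1.39. At 270 min the difference was -3.21 for Slc9a9, -1.79 for Slc37a2, -1.52 for Slc24a5 and -1.46 for Slc25a44. The call of Slc9a9 was kept with each of the 6 cultures left out and under quantile scaling of the arrays. The calls of the other 4 were lost under quantile scaling and without some cultures. The nascent level of Slc9a9 at 270 min lay under the array background.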

How the results depend on the processing

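None of the 235 calls of named genes changed sign under any alternative run. The block, the fit with no intensity trend and the fit without dim symbols keep each difference as it is, so they could not change a sign. Neither could leaving out an array or culture that a comparison does not use. Medians near 0 changed sign under quantile scaling. The median difference of the 45 min responses over the 124 genes was 0.004 there, against -0.155 without it. Over the symbols at 8 or more it was 0.025 against -0.045 for nascent RNA from 45 to 270 min, and -0.062 against 0.008 for nascent over total RNA of unstimulated cells. With the experiment as a replicate block, every one of these calls was kept, and counts moved by more than 1.5 times in 6 cases. Early nascent falls came to 15 and early total RNA rises to 4. Higher and lower nascent responses came to 4 and 6 at 45 min and to 1 and 10 at 270 min. Shares of all symbols are given for the main fit only, so counts under the alternatives are not set against the array. Quantile scaling ended 22 of the 235 calls, and brought the lower nascent responses to 0 at 45 min and 1 at 270 min. Leaving out dim symbols ended 0 calls, the mean of all probe sets 1 and a fit with no intensity trend 1. A mean over probe sets would have kept 122 genes.

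With each array or culture left out in turn, nascent rises ranged from 5 to 9 at 45 min and from 14 to 18 at 270 min, and nascent falls from 1 to 14 and from 41 to 61. Total RNA rises ranged from 0 to 3 and from 15 to 21, and total RNA falls were 0 at 45 min and ranged from 29 to 45 at 270 min. From 45 to 270 min, rises ranged from 11 to 13 in nascent and from 12 to 17 in total RNA, and falls from 27 to 45 in both. Higher nascent responses ranged from 0 to 4 at 45 min and from 0 to 2 at 270 min, and lower ones from 0 to 15 and from 1 to 23. In unstimulated cells 11 to 25 genes were higher and 16 to 31 lower in nascent RNA. Where a group was left with 1 array, that array was assumed to vary like the other groups. Signal over background limited the size of the fall of 6 genes whose nascent level at 270 min lay under the background.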

Other observations

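Of 28 listed genes linked to solute transport or to metal handling, 26 were measured. Their symbols do not have the Slc form that chose the carriers, so they were set apart by symbol and not by family. At 270 min of LPS 4 were called higher and 10 lower in nascent RNA, where 8.87% of all 19938 symbols were called higher and 14.2% lower, and 14.9% and 28.8% of the 7382 symbols at 8 or more in some group. In total RNA 4 were called higher and 10 lower, where 7.02% and 12% of all symbols were, and 14.3% and 23% of those 7382. Nothing is read from this list's distance to the percentages. Slco3a1, which encodes an organic anion transporting polypeptide, had a difference of 3.49 ± 0.21 (SE; adjusted p = 6.67e-08) in nascent and 3.11 ± 0.21 (SE; adjusted p = 2.99e-07) in total RNA. Mfsd7a, of the major facilitator superfamily, had 1.73 ± 0.26 (SE; adjusted p = 0.000195) and 1.44 ± 0.26 (SE; adjusted p = 0.00112). The largest fall was that of Flvcr1, for a haem and choline carrier, with -3.76 ± 0.21 (SE; adjusted p = 2.99e-08) in nascent and -2.62 ± 0.21 (SE; adjusted p = 1.29e-06) in total RNA. Ctns, for the lysosomal cystine exporter cystinosin, had -2.69 ± 0.22 (SE; adjusted p = 7.29e-07) and -2.34 ± 0.22 (SE; adjusted p = 4.28e-06). Xpr1, which encodes the phosphate exporter, had -1.78 ± 0.21 (SE; adjusted p = 2.31e-05) and -1.69 ± 0.21 (SE; adjusted p = 5.11e-05). Emb encodes embigin, a partner of monocarboxylate transporters, and fell more in nascent than in total RNA, the difference of the responses being -1.73 ± 0.28 (SE; adjusted p = 0.00168).

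The metallothionein genes Mt1 and Mt2, whose products bind zinc and copper, changed early. In nascent RNA at 45 min Mt1 had a difference of 1.51 ± 0.29 (SE; adjusted p = 0.00543) and Mt2 of 2.91 ± 0.52 (SE; adjusted p = 0.00366). At 270 min against unstimulated cells, Mt1 had a nascent difference of -1.32 ± 0.29 (SE; adjusted p = 0.0044) and a total RNA difference of -0.10 (adjusted p = 0.847), and Mt2 had a nascent difference of 0.32 (adjusted p = 0.666). From 45 to 270 min nascent Mt1 had -2.83 ± 0.29 (SE; adjusted p = 9.44e-06) and nascent Mt2 -2.59 ± 0.52 (SE; adjusted p = 0.00289), while total RNA of Mt2 at 270 min was higher than in unstimulated cells by 1.89 ± 0.52 (SE; adjusted p = 0.0207). Slco4a1 had 2.78 ± 0.24 (SE; adjusted p = 6.73e-06) in nascent and 1.45 ± 0.24 (SE; adjusted p = 0.00639) in total RNA at 45 min. These values are given as measured and their relation to the carriers was not tested.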
